A study of Mus musculus with 8 samples.

Results

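The 8 genes of RNA sensing, interferon signalling and the Ifitm family were followed across cultured mouse embryonic stem cells. They were taken by gene name from the raw count table: the RNA sensors Rigi and Ifih1, the transcription factors Irf1, Irf9 and Stat2, and the membrane proteins Ifitm1, Ifitm2 and Ifitm3. These are 8 of 57010 genes in the table, and 7 of the 8 passed the filter on low counts that left 17976 genes for testing. Ifih1 did not pass. RNA sequencing covered 4 groups with 2 libraries each. HSVTK cells carried an inducible reporter (2C::HSVTK) that lets ganciclovir (GANC) act against cells in the 2C-like state, a transient state resembling the early embryo. The viral thymidine kinase of such a reporter turns GANC into a toxic product. The groups were HSVTK cells with GANC, HSVTK cells with the solvent DMSO, Control cells with GANC and Control cells with DMSO. The labels give neither what the Control cells carry nor the strain, the clone, the dose or the duration. The labels do not state whether the 2 libraries of each group stem from separate cultures, and the p-values therefore reflect the spread among these libraries alone, which may be technical.

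RNA helicases such as RIG-I, the product of Rigi, and MDA5, the product of Ifih1, bind foreign RNA in the cytoplasm and signal through the adaptor Mavs to kinases and to the factors Irf3 and Irf7, which switch on interferon genes. Secreted type I interferon acts on the receptor of Ifnar1 and Ifnar2, and the kinases Jak1 and Tyk2 then activate STAT factors such as Stat2, which joins Irf9 to drive antiviral effector genes through GAAA-type elements. Mouse embryonic stem cells are known for producing little interferon and for responding weakly to it. Ifitm proteins restrict the entry of viruses, and in the mouse embryo Ifitm1 and Ifitm3 are also known from the epiblast and from germ cell formation.

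The promoter sequences are shown because 5 of the 8 genes hold the core letters of the element that the complex holding Stat2 and Irf9 binds, and because members with and without those letters were measured in the same cells. The windows reach from 250 bases before to 50 bases after each start, in RefSeq for GRCm38.p6, and all 8 members had a window (Rigi under its older symbol Ddx58). The motif made of GAAA, any 2 bases and GAAA again, searched on both strands, was present in windows of Rigi, Ifih1, Stat2, Ifitm2 and Ifitm3, that is 5 of 8 genes, against 3.99% of all 27025 genes with a window. The motif TTCNNNGAA, also on both strands and known as a motif of the STAT family, was present in windows of Irf1 and Ifitm3, against 9.55% of all genes with a window. Neither was found in the windows of Irf9 and Ifitm1. A match describes letters and does not show binding. Each line gives 30 bases read 5′ to 3′ on the strand of the gene, with the fixed letters of the motif in capitals (TTTC where the match lies on the other strand). In the Ifitm3 stretch, which lies just after the start, 2 copies of the GAAA motif begin 3 and 20 bases after the start, and the TTCNNNGAA match of Ifitm3 begins at base 14 and overlaps the copy at base 20. For Irf1 the capitals mark TTCNNNGAA.
Rigi, chr4:40239804-40239833, minus strand: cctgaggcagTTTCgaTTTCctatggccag
Ifih1, chr2:62646206-62646235, minus strand: gagaagagaatcGAAAcaGAAAccgatctg
Stat2, chr10:128270266-128270295, plus strand: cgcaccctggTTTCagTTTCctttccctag
Ifitm2, chr7:140955988-140956017, minus strand: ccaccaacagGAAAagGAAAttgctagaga
Ifitm3, chr7:141010714-141010743, minus strand: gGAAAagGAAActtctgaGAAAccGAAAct
Irf1, chr11:53769914-53769943, plus strand: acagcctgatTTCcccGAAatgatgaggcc

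The coding stretch shared by the Ifitm genes is shown because these paralogs can share reads. In GENCODE vM21, Ifitm2 and Ifitm3 were identical in 75.9% of aligned coding columns, Ifitm1 and Ifitm3 in 63.5% and Ifitm1 and Ifitm2 in 60.4%. The 90 bases below begin at coding base 96 in Ifitm1, 159 in Ifitm2 and 162 in Ifitm3, and 83 of the 90 columns are identical in all 3 genes. Capitals mark a base that differs from both other genes.
Ifitm1: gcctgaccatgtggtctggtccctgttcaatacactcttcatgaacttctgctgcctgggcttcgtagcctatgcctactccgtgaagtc
Ifitm2: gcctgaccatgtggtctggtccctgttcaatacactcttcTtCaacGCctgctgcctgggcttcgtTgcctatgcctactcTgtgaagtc
Ifitm3: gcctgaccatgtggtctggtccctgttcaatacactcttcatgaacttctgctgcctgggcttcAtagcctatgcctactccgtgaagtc
Ifitm1 and Ifitm2 share no stretch of 50 bases in their transcripts, while Ifitm3 shares 15 such stretches with Ifitm1 and 20 with Ifitm2, of 629 in its own transcript. The sources used here do not give how the deposited counts treated reads with several matches, and part of the Ifitm counts may be assigned to the wrong copy.

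The libraries held 29704460 to 34184475 counts assigned to genes. Summed over 10 genes, stem cell markers had 5823 and 5988 CPM in HSVTK GANC, 6665 and 6762 CPM in HSVTK DMSO, and 5570 to 6140 CPM in Control cells, where CPM is counts per 1e+06 counts after scaling between libraries. Markers of the 2C-like state, which GANC is meant to reduce in HSVTK cells, went against that purpose, and the reason was not tested. Their summed level was 75.2 and 81.1 CPM in the libraries labelled HSVTK GANC, against 29.9 to 38.2 CPM in the other 6. Of 12 tested markers 8 were called higher and 0 lower in HSVTK GANC than in HSVTK DMSO (66.7% called). Among all tested genes 13.3% were called higher and 28.5% in either direction. Primitive endoderm markers summed to 286 and 265 CPM in HSVTK GANC, 239 and 240 CPM in HSVTK DMSO, and 188 to 208 CPM in the 4 Control libraries. Of these 11 markers, 3 were called higher and 1 lower in HSVTK GANC than in HSVTK DMSO (36.4% called, median log2 difference -0.08). Only 3 of the 11 had a mean of at least 10 CPM, so the sum follows few genes. Germ cell and epiblast markers summed to 122 and 129 CPM in HSVTK GANC, against 149 to 160 CPM in the other 6 libraries. These markers went both ways. Of 11 tested, 2 were called higher and 3 lower in HSVTK GANC than in HSVTK DMSO (45.5% called, log2 differences from -1.65 to 1.28). Fibroblast markers summed to 23.9 and 25.3 CPM in HSVTK GANC, 25.2 and 28.8 CPM in HSVTK DMSO, 19.0 and 21.1 CPM in Control GANC, and 13.7 and 15.5 CPM in Control DMSO. Of these 13 markers, 9 had a mean below 1 CPM and 1 of at least 10 CPM. Of the 7 tested, 0 were higher and 1 lower in HSVTK GANC than in HSVTK DMSO (14.3% called). In HSVTK against Control cells under DMSO, 2 were higher and 0 lower (28.6% called, against 33.7% of all tested genes). The 12 macrophage and lymphocyte markers summed to 21.4 and 20.5 CPM in HSVTK GANC, 18.6 CPM in each HSVTK DMSO library, and 11.5 to 16.0 CPM in Control cells. Of these, 3 (Ptprc, Lyz2 and Tyrobp) had 0 counts in all 8 libraries. In all, 9 of the 12 had a mean below 1 CPM and 1 of at least 10 CPM. Under DMSO, 2 of the 6 tested ones were higher and 1 lower in HSVTK than in Control cells (50% called, against 33.7% of all tested genes). The mitochondrial share was 3.56 and 3.45% in HSVTK GANC and at most 3.17% elsewhere. All directions below that involve HSVTK libraries rest on the labels, and the part of these differences in the results was not tested.

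Per gene length, in the deposited FPKM (counts per kilobase of gene and per 1e+06 assigned counts), the Ifitm genes stood far above the sensors and factors. Mean levels over the 8 libraries were 164 FPKM for Ifitm3, 163 for Ifitm1 and 94.3 for Ifitm2. Rigi averaged 9.07 FPKM, Irf1 2.62, Stat2 2.60 and Irf9 1.505. Ifitm3 exceeded 98.4% of all tested genes, Rigi 73.6% and Irf9 42.8%. Ifitm3 and Ifitm1 did not keep 1 order across libraries, and the levels of Irf1 and Stat2 overlapped.

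**Figure D1:**
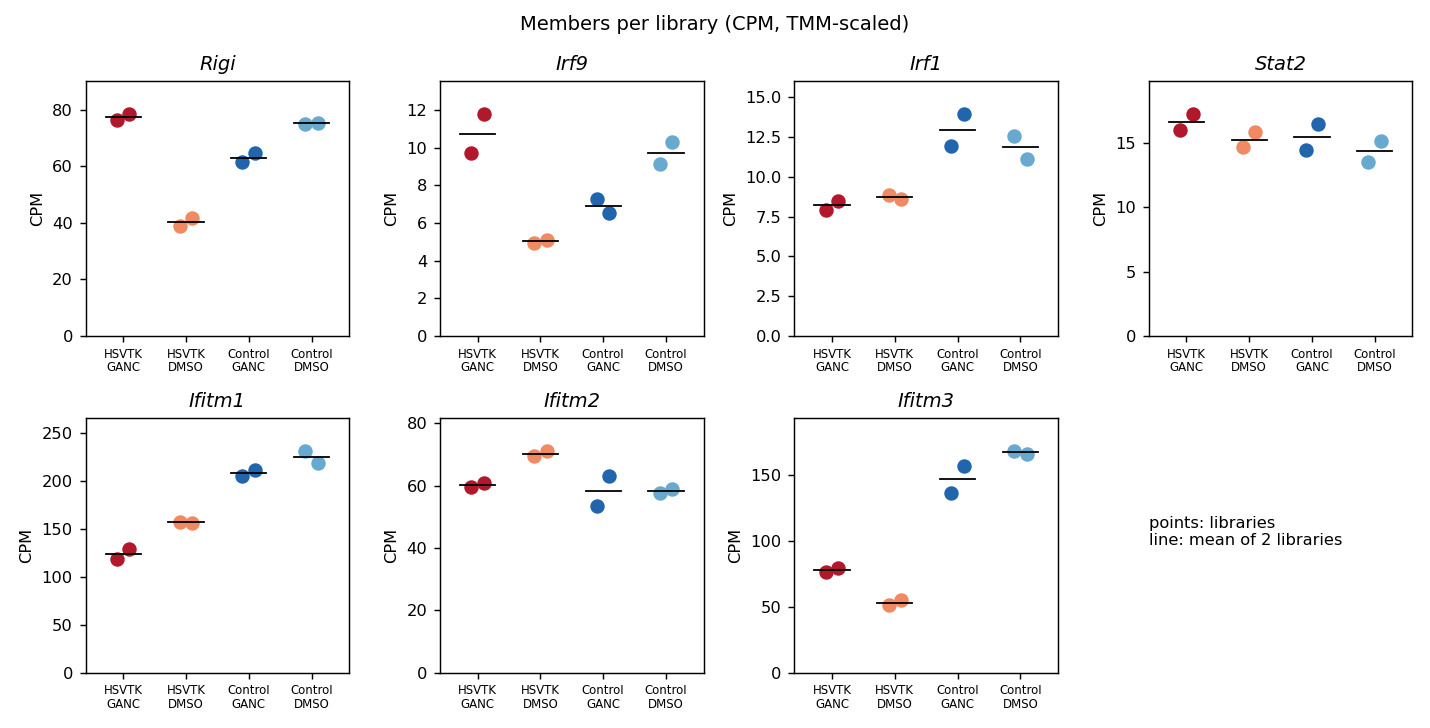
Level of each tested member in CPM (vertical axes, linear from 0) in the 8 libraries, with the 4 groups along the horizontal axes, points for libraries and lines for the mean of 2 libraries. Rigi and Irf9 were lowest in HSVTK DMSO, Ifitm3 was lower in both HSVTK groups than in both Control groups, and Stat2 lay between 13.5 and 17.2 CPM throughout.

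In the libraries labelled HSVTK GANC, the sensor Rigi, the factor Irf9 and the effector Ifitm3 rose relative to those labelled HSVTK DMSO, while Ifitm1 and Ifitm2 fell. Of the 7 tested members 3 were higher and 2 lower in edgeR's quasi-likelihood test at a Benjamini-Hochberg adjusted p below 0.05, against 13.3% higher and 15.2% lower (28.5% in all) among all tested genes. The libraries of the groups did not overlap for any of the 7, against 64.2% of tested genes. In Control cells, Rigi and Irf9 were lower with GANC and no member was higher. There 2 of 7 members were lower and 0 higher, against 3.35% lower and 4.73% higher (8.08% in all) among all tested genes, and the libraries did not overlap for 4 of 7, against 49.5% of tested genes. The count of higher members was 0 also at an unadjusted p below 0.05 in edgeR, and 0 with DESeq2 and limma. In the difference of both responses (HSVTK minus Control), 3 of 7 members were higher and 0 lower, against 11.6% higher and 14% lower (25.6% in all) among all tested genes. At an unadjusted p below 0.05 edgeR had 2 lower members there, Ifitm1 and Ifitm2, while DESeq2 called 1 lower and limma 0. In bulk samples, fewer cells of a type and less RNA per cell cannot be told apart.

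Rigi (ENSMUSG00000040296, chromosome 4) had 76.3 and 78.4 CPM in HSVTK GANC, against 38.7 and 41.8 CPM in HSVTK DMSO. It had 61.4 and 64.7 CPM in Control GANC, against 75.1 and 75.2 CPM in Control DMSO. HSVTK DMSO was thus the low group, and HSVTK GANC and Control DMSO were the high ones, with no overlap between any groups. In HSVTK cells the log2 fold change with GANC was 0.94 ± 0.07 (SE, edgeR adjusted p = 1.52e-10), a 1.92-fold higher level. In Control cells it was -0.25 ± 0.07 (edgeR adjusted p = 0.0273), a call lost in 8 of 17 alternative settings, among them the fits without Control DMSO replicate 1 (adjusted p = 0.173), Control DMSO replicate 2 (0.213), Control GANC replicate 1 (0.129), HSVTK DMSO replicate 1 (0.0590) or HSVTK DMSO replicate 2 (0.0601). The range over all settings was 0.0161 to 0.213. The difference between both responses was 1.19 ± 0.10 on the log2 scale (edgeR adjusted p = 1.27e-09).

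Ifih1 (ENSMUSG00000026896, chromosome 2), the sensor of long double-stranded RNA, had 2 counts in Control DMSO replicate 2 and 0 counts in the other 7 libraries. A count of 0 allows up to 3 counts per library. In the 7 libraries with 0 counts this is 0.0876 to 0.0995 CPM, and it covers counting error only. No fold change is given for it. Rigi, the other sensor, had 1243 to 2623 counts in each library.

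Irf9 (ENSMUSG00000002325, chromosome 14), the DNA-binding partner of Stat2, had 9.73 and 11.8 CPM in HSVTK GANC, against 4.95 and 5.11 CPM in HSVTK DMSO. It had 7.26 and 6.53 CPM in Control GANC, against 9.11 and 10.3 CPM in Control DMSO. HSVTK DMSO was again lowest, and Control DMSO overlapped with HSVTK GANC. The log2 fold change was 1.10 ± 0.15 (SE, edgeR adjusted p = 2.60e-06) in HSVTK cells. In Control cells it was -0.49 ± 0.15 (edgeR adjusted p = 0.0379), and 10 of 17 settings lost that call, including DESeq2 (0.0814) and the fits without Control DMSO replicate 1 (0.0726), Control DMSO replicate 2 (0.304), Control GANC replicate 2 (0.214), HSVTK DMSO replicate 1 (0.0532) or HSVTK DMSO replicate 2 (0.0524). The range over the settings was 0.0329 to 0.304. The responses differed by 1.59 ± 0.21 (edgeR adjusted p = 2.03e-06). In GENCODE vM21, 123 bases of Irf9 overlap Rnf31 on the same strand, and Rnf31 had 454 to 588 counts per library.

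Stat2 (ENSMUSG00000040033, chromosome 10), which carries the activating domain of their joint complex, had 16.0 and 17.2 CPM in HSVTK GANC, against 14.7 and 15.8 CPM in HSVTK DMSO. It had 14.5 and 16.4 CPM in Control GANC, against 13.5 and 15.1 CPM in Control DMSO. Its log2 difference was 0.12 (95% interval -0.11 to 0.36, edgeR adjusted p = 0.470) in HSVTK cells and 0.11 (-0.13 to 0.35, adjusted p = 0.651) in Control cells. No comparison called Stat2, and its interaction value was 0.01 (interval -0.32 to 0.35).

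Irf1 (ENSMUSG00000018899, chromosome 11), an interferon-inducible activator that also drives antiviral genes on its own, had 7.93 and 8.49 CPM in HSVTK GANC, against 8.85 and 8.59 CPM in HSVTK DMSO. It had 11.9 and 13.9 CPM in Control GANC, against 12.6 and 11.1 CPM in Control DMSO. All 4 Control libraries lay above all 4 HSVTK libraries. The log2 difference with GANC was -0.09 (95% interval -0.36 to 0.19, edgeR adjusted p = 0.692) in HSVTK cells and 0.12 (-0.14 to 0.39, adjusted p = 0.652) in Control cells. An annotated gene on the opposite strand, Gm17334, overlaps 907 bases of Irf1 and had 1 to 16 counts per library, and the sources used here do not give whether counting used strand.

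Ifitm3 (ENSMUSG00000025492, chromosome 7), the best known antiviral member of the family, had 76.6 and 79.8 CPM in HSVTK GANC, against 51.3 and 55.3 CPM in HSVTK DMSO. It had 137 and 158 CPM in Control GANC, against 169 and 166 CPM in Control DMSO. The order HSVTK DMSO, HSVTK GANC, Control GANC, Control DMSO held for every library. The log2 fold change was 0.55 ± 0.07 (SE, edgeR adjusted p = 1.30e-06) in HSVTK cells. In Control cells it was -0.19 ± 0.07 (adjusted p = 0.0917, and 0.0147 without Control GANC replicate 2), and the HSVTK response exceeded the Control response by 0.74 ± 0.10 (edgeR adjusted p = 2.45e-06).

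Ifitm1 (ENSMUSG00000025491, chromosome 7) had 119 and 129 CPM in HSVTK GANC, against 158 and 157 CPM in HSVTK DMSO. It had 206 and 211 CPM in Control GANC, against 232 and 219 CPM in Control DMSO. HSVTK GANC was the lowest group here, while for its neighbour Ifitm3 that was HSVTK DMSO. The log2 fold change was -0.34 ± 0.06 (SE, edgeR adjusted p = 0.000107) in HSVTK cells and -0.11 (95% interval -0.24 to 0.01, adjusted p = 0.284) in Control cells. Its interaction value was -0.23 ± 0.09 (edgeR adjusted p = 0.0508), which passed with DESeq2 (0.0299), without Control GANC replicate 1 (0.0179) and without HSVTK GANC replicate 2 (0.0185), in a range of 0.0179 to 0.192 over all settings.

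Ifitm2 (ENSMUSG00000060591, chromosome 7) had 59.5 and 60.8 CPM in HSVTK GANC, against 69.5 and 71.2 CPM in HSVTK DMSO. It had 53.6 and 63.2 CPM in Control GANC, against 57.5 and 58.9 CPM in Control DMSO. Its HSVTK DMSO libraries were the highest of all 8. The log2 fold change was -0.23 ± 0.08 (SE, edgeR adjusted p = 0.0297) in HSVTK cells, and 7 of 17 settings lost the call, among them all 4 fits that left out 1 HSVTK library (adjusted p = 0.0896 and 0.167 without HSVTK DMSO replicates 1 and 2, and 0.131 and 0.0737 without HSVTK GANC replicates 1 and 2). The range over all settings was 0.00679 to 0.167. With GANC in Control cells it changed by 0.00 (95% interval -0.16 to 0.16). Its interaction value was -0.23 ± 0.11 (edgeR adjusted p = 0.133, and 0.00911 without Control GANC replicate 1). Gm45717 overlaps 1101 of the 1151 bases spanned by Ifitm2 on the same strand and had 0 counts in all 8 libraries.

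**Figure D2:**
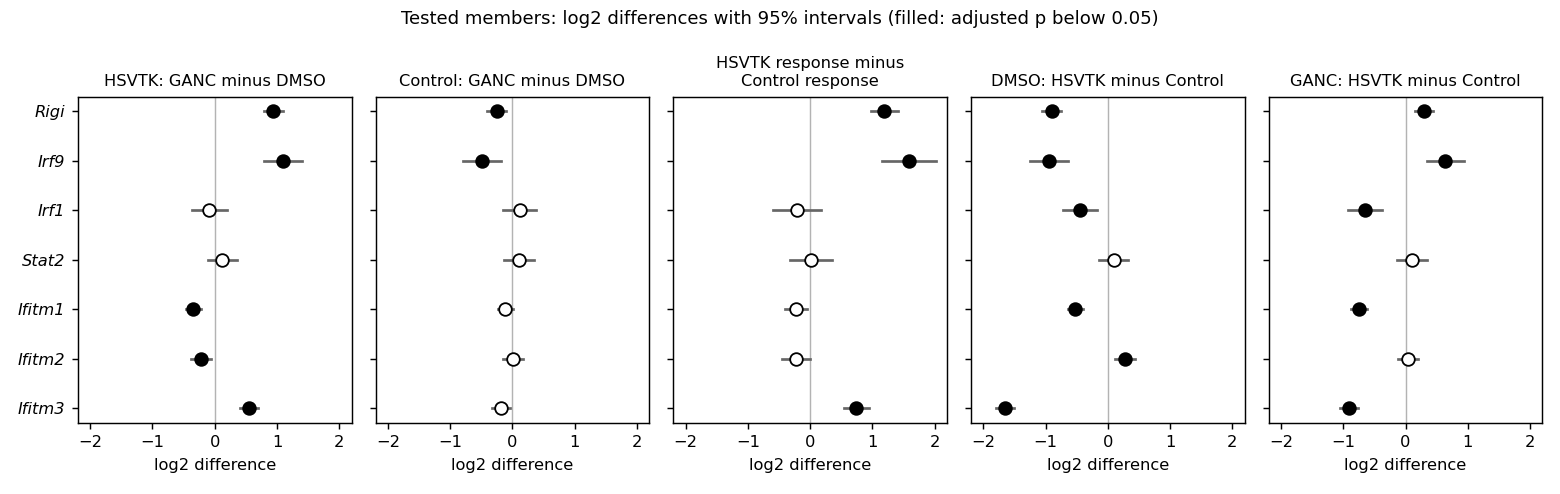
Log2 differences of the 7 tested members (horizontal axes, with 95% intervals) in 5 comparisons, filled where the edgeR adjusted p was below 0.05. Rigi, Irf9 and Ifitm3 lay above 0 for GANC in HSVTK cells and in the interaction, and below 0 for HSVTK against Control cells under DMSO.

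The comparison of HSVTK with Control cells under DMSO shows the levels without the drug. Ifitm3, Irf9, Rigi, Ifitm1 and Irf1 were lower in HSVTK cells and Ifitm2 was higher. Of 7 tested members 5 were lower and 1 higher, against 17.3% lower and 16.4% higher (33.7% in all) among all tested genes. The libraries did not overlap for 6 of 7, against 67.3% of tested genes. Ifitm3 had the largest difference of the members, at -1.65 ± 0.07 on the log2 scale (SE, edgeR adjusted p = 2.51e-16), which is 3.14-fold lower in HSVTK DMSO. Irf9 stood at -0.94 ± 0.15 (edgeR adjusted p = 1.51e-05) and Rigi at -0.90 ± 0.07 (edgeR adjusted p = 1.14e-10). Ifitm1 stood at -0.52 ± 0.06 (edgeR adjusted p = 9.38e-08). Irf1 stood at -0.45 ± 0.13 (edgeR adjusted p = 0.00969), which missed the threshold without Control DMSO replicate 1 (0.132), without HSVTK DMSO replicate 2 (0.0769) and with limma on log2(FPKM + 1) (0.0502). Ifitm2 stood at 0.27 ± 0.08 (edgeR adjusted p = 0.00711), which missed it without Control DMSO replicate 1 (0.0727) or HSVTK DMSO replicate 2 (0.0718). This comparison and the GANC comparison in HSVTK cells share the HSVTK DMSO libraries, so a level that is low in those libraries appears in both.

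Under GANC, Ifitm3, Ifitm1 and Irf1 were again lower in HSVTK than in Control cells, while Irf9 and Rigi were higher. Of 7 tested members 2 were higher and 3 lower, against 11.1% higher and 14.9% lower (26.1% in all) among all tested genes. The libraries did not overlap for 5 of 7, against 59.6% of tested genes. Ifitm3 stood at -0.91 ± 0.07 (SE, edgeR adjusted p = 6.73e-11), Ifitm1 at -0.75 ± 0.06 (1.96e-10) and Irf1 at -0.65 ± 0.13 (0.000458). Irf9 stood at 0.64 ± 0.15 (edgeR adjusted p = 0.00150, and 0.0616 without HSVTK GANC replicate 2) and Rigi at 0.29 ± 0.07 (0.00280). Ifitm2 stood at 0.04 (95% interval -0.12 to 0.21).

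Within the Ifitm cluster the proportions of the 3 genes differed between the groups, as a description without a test. The summed level of Ifitm1, Ifitm2 and Ifitm3 was 255 and 270 CPM in HSVTK GANC, 279 and 283 CPM in HSVTK DMSO, 396 and 432 CPM in Control GANC, and 458 and 445 CPM in Control DMSO. Ifitm3 gave 30.1 and 29.6% of these counts in HSVTK GANC, 18.4 and 19.5% in HSVTK DMSO, 34.5 and 36.5% in Control GANC, and 36.8 and 37.4% in Control DMSO. Ifitm2 gave 23.3 and 22.5%, 24.9 and 25.2%, 13.5 and 14.6%, and 12.6 and 13.3% in the same order of groups. Per length, Ifitm3 stood at 1.04 and 0.998 times the FPKM of Ifitm1 in HSVTK GANC and at 0.524 and 0.570 times in HSVTK DMSO. In Control cells it stood at 1.07 and 1.203 times with GANC and at 1.18 and 1.23 times with DMSO.

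**Figure D3:**
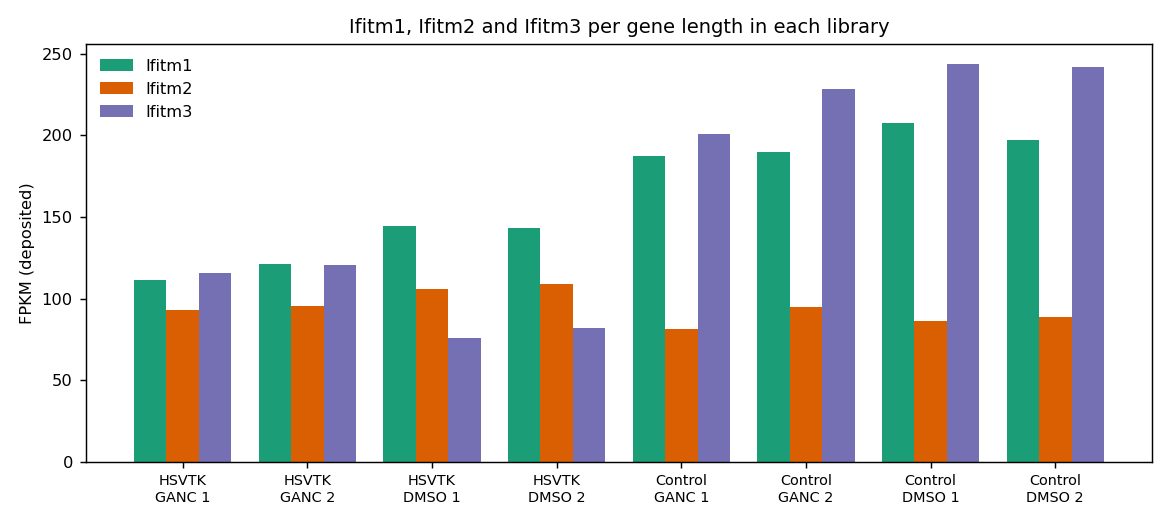
Deposited FPKM of Ifitm1, Ifitm2 and Ifitm3 (bars, linear axis from 0) in each of the 8 libraries. Ifitm3 was the lowest of the 3 in HSVTK DMSO, at 75.7 and 81.7 FPKM, and the highest of the 3 in every Control library, at 201 to 244 FPKM.

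The other Ifitm genes were scarce. Ifitm7 had 80 and 57 counts in HSVTK GANC, 43 and 66 in HSVTK DMSO, 64 and 66 in Control GANC, and 110 and 105 in Control DMSO. It was lower in HSVTK than in Control cells under DMSO (log2 -1.09 ± 0.27, edgeR adjusted p = 0.00222). Ifitm5, a bone-restricted member, had 21 and 30 counts in HSVTK GANC, 8 and 13 in HSVTK DMSO, 26 and 24 in Control GANC, and 25 and 25 in Control DMSO. It was also lower in HSVTK cells under DMSO (-1.35 ± 0.53, adjusted p = 0.0493), and Ifitm6 was not called in any comparison. Ifitm10 had 0 counts in all libraries.

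Among 20 tested neighbours of the Ifitm cluster on chromosome 7, 4 were higher and 2 lower in HSVTK GANC than in HSVTK DMSO (30% called against 28.5% of all tested genes, median log2 difference -0.02), and 2 were higher and 6 lower in HSVTK than in Control cells under DMSO (40% against 33.7%, median -0.01). The tested genes as a whole had medians of 0.01 and 0.00. B4galnt4, which lies beside the cluster and encodes a glycosyltransferase, stood at 0.67 ± 0.09 between HSVTK GANC and HSVTK DMSO (edgeR adjusted p = 1.54e-06), and the p53-induced death domain gene Pidd1 at 0.53 ± 0.09 (6.72e-05). Pnpla2, a triglyceride lipase, stood at -0.41 ± 0.11 (0.00441). Gene order comes from GENCODE vM21.

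**Figure D4:**
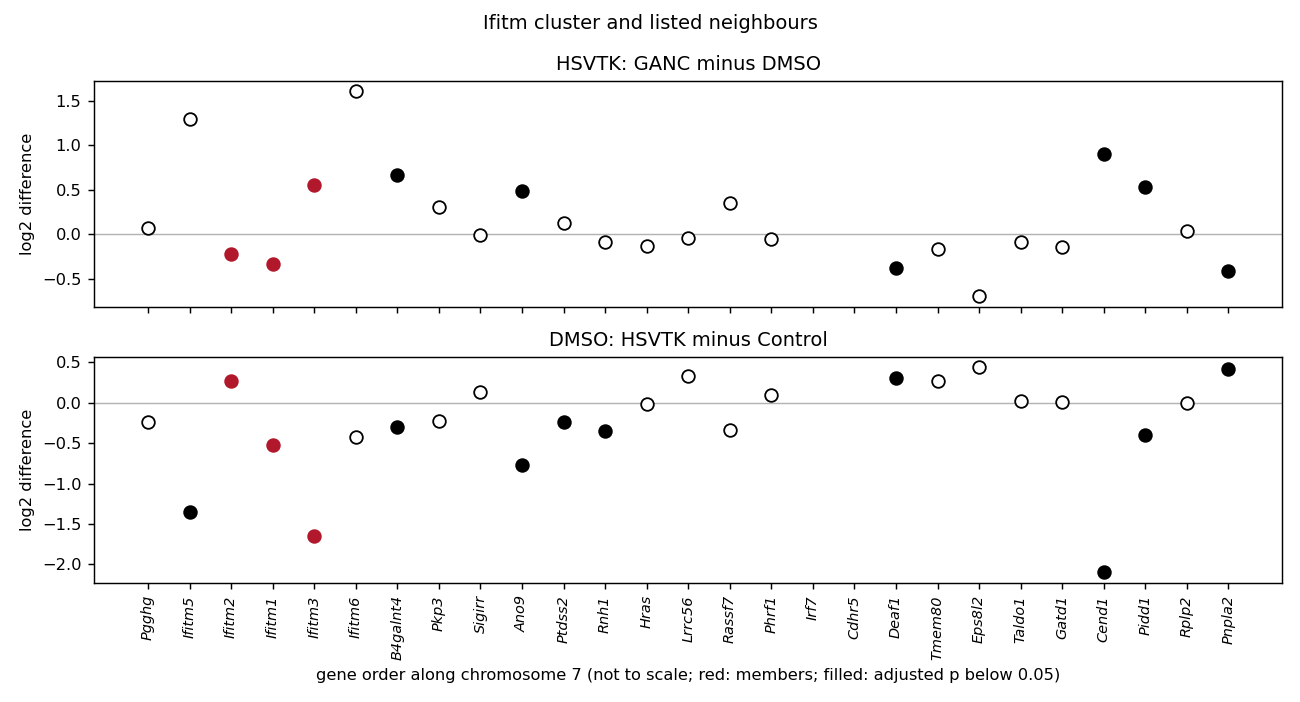
Log2 difference (vertical axes) of the Ifitm genes and their listed neighbours in gene order along chromosome 7 (horizontal axis, not to scale), for HSVTK GANC against HSVTK DMSO above and HSVTK against Control under DMSO below. Ifitm3 lay at 0.55 above and -1.65 below, while its neighbours Ifitm1 and Ifitm2 lay at -0.34 and -0.23 above.

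Outside the members, the pathway was written as 191 genes, of which 126 were tested. In HSVTK GANC against HSVTK DMSO, 21 were higher and 20 lower (32.5% called against 28.5% of all genes). In Control cells with GANC, 5 were higher and 3 lower (6.35% against 8.08%). In HSVTK against Control cells, 15 were higher and 30 lower under DMSO (35.7% against 33.7%), and 9 were higher and 23 lower under GANC (25.4% against 26.1%). These shares, with both directions together, lie near the background of all tested genes. In HSVTK against Control cells, 16.4% of all tested genes were higher and 17.3% lower under DMSO. Under GANC 11.1% were higher and 14.9% lower. The pathway genes thus leaned more to lower in HSVTK cells than all tested genes did, and this lean was not tested. Single libraries moved the counts of lower genes. In HSVTK GANC against HSVTK DMSO, 13 were lower when HSVTK DMSO replicate 1 was left out, and 11 when HSVTK GANC replicate 1 was. In HSVTK against Control cells under DMSO, 13 and 17 were lower without HSVTK DMSO replicates 1 and 2, and 19 and 18 without Control DMSO replicates 1 and 2. In Control cells with GANC, the counts ranged between 1 and 10 higher and between 0 and 7 lower when 1 library was left out.

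The interferons themselves were almost without counts. Of 21 interferon genes in the table, 18 had 0 counts in all 8 libraries, among them Ifnb1, and none of the others exceeded 8 counts in a library. Several classical interferon-induced genes were also low. Mx2 had at most 2 counts in a library, Isg15 at most 3, Ifit3 and Mx1 at most 4, Ifit1 at most 6, and Usp18 at most 8. Others reached more, with up to 12 counts for Oasl2, 2 to 17 for Cxcl10 and 2 to 28 for Rsad2, and the tested ones, Cxcl10 and Rsad2, were not called in HSVTK GANC against HSVTK DMSO. These genes were named after their values were seen. Irf7, the factor that amplifies interferon production, had at most 11 counts. The wider list of 82 interferon-induced effectors was not low throughout. In it 33 genes had a mean of at least 1 CPM and 12 of at least 10 CPM, while 49 had a mean below 1 CPM. The list summed to 578 to 668 CPM per library. Of these 82 effectors 51 were tested, and 5 were higher and 8 lower in HSVTK GANC than in HSVTK DMSO (25.5% called against 28.5% of all tested genes, median log2 difference -0.02).

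Among the effectors with a called difference, Xaf1, a p53- and interferon-linked apoptosis gene, had 15.9 and 16.6 CPM in HSVTK GANC, against 7.13 and 5.32 CPM in HSVTK DMSO. It had 5.50 and 4.41 CPM in Control GANC, against 6.22 and 6.46 CPM in Control DMSO. Its log2 fold change in HSVTK cells was 1.39 ± 0.15 (SE, edgeR adjusted p = 5.13e-08). Slfn9, of the Schlafen family, went the other way, with 28 and 48 counts in HSVTK GANC, against 199 and 208 counts in HSVTK DMSO. It had 157 to 181 counts in the Control libraries, and its log2 fold change in HSVTK cells was -2.39 ± 0.22 (3.41e-09). Pml, the organiser of nuclear bodies, stood at 0.52 ± 0.07 (6.43e-07) and the lysosomal reductase Ifi30 at -0.64 ± 0.11 (3.42e-05). Bst2, which tethers budding virus particles, was higher in HSVTK than in Control cells under DMSO (0.59 ± 0.09, 5.03e-06).

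Along the signalling chain, the sensor list had 3 of 15 tested genes higher and 1 lower in HSVTK GANC than in HSVTK DMSO (26.7% called, against 28.5% of all tested genes). Mavs, the adaptor of Rigi, had 25.6 and 23.3 CPM in HSVTK GANC, against 16.7 and 16.5 CPM in HSVTK DMSO (log2 0.56 ± 0.10, edgeR adjusted p = 0.000160). Trim25, the ubiquitin ligase that activates RIG-I, stood at 0.24 ± 0.06 (0.00264) and the helicase Dhx9 at 0.31 ± 0.06 (0.000179). Zcchc3, a co-sensor of foreign RNA, stood at -0.53 ± 0.07 (2.40e-06). Of the DNA sensors, Cgas stood at 0.84 ± 0.23 (0.00651) with 165 and 155 counts in HSVTK GANC, against 78 and 105 counts in HSVTK DMSO, and Aim2 at -0.31 ± 0.08 (0.00244).

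Among kinases and induction factors, 6 of 18 tested genes were higher and 4 lower in HSVTK GANC (55.6% called, against 28.5% of all tested genes). Irf3, which Rigi signalling activates, had 621 and 669 counts in HSVTK GANC, against 364 and 379 counts in HSVTK DMSO. It had 613 and 521 counts in Control GANC, against 684 and 536 counts in Control DMSO, so HSVTK DMSO was the low group, as for Rigi and Irf9. Its log2 fold change was 0.82 ± 0.11 (SE, edgeR adjusted p = 2.00e-06) in HSVTK cells, and -0.81 ± 0.11 (1.33e-06) in HSVTK against Control cells under DMSO. The kinase subunit gene Ikbkb stood at 0.69 ± 0.11 (3.65e-05) and Irf2bp2, a corepressor, at -0.70 ± 0.09 (6.56e-07). Irf8, a factor of blood cells, fell by 2.30 ± 0.36 on the log2 scale (1.75e-05), with 17 and 19 counts in HSVTK GANC, against 88 and 94 counts in HSVTK DMSO.

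Of 12 tested receptor and JAK-STAT genes, 4 were higher and 3 lower in HSVTK GANC than in HSVTK DMSO (58.3% called, against 28.5% of all tested genes). The receptor chain Ifnar1 stood at 0.35 ± 0.09 (SE, edgeR adjusted p = 0.00271), the kinase Tyk2 at 0.45 ± 0.09 (0.000290), Jak1 at -0.41 ± 0.08 (0.000296) and the interferon gamma receptor chain Ifngr1 at -1.06 ± 0.23 (0.000976). Of 19 tested inhibitors 1 was higher and 2 lower (15.8% called), with Pias1, a SUMO ligase, at -0.43 ± 0.08 (0.000206).

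**Figure D5:**
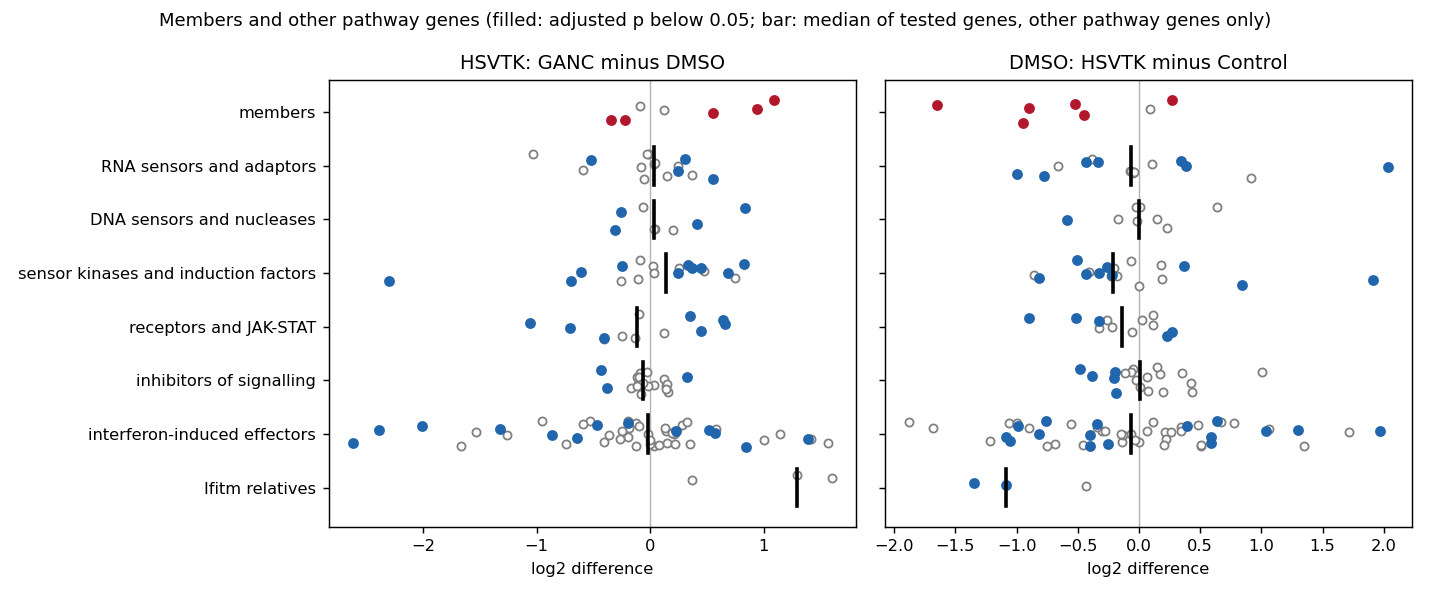
Log2 differences (horizontal axes) of the tested members and of the other pathway genes by list, for HSVTK GANC against HSVTK DMSO on the left and HSVTK against Control under DMSO on the right. Points are genes, filled where the edgeR adjusted p was below 0.05, and bars are medians of the other lists. Genes lay on both sides of 0 in every list with more than 3 tested genes.

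Over the 8 libraries, levels of Rigi and Irf9 had a Pearson correlation of 0.938 in log2 CPM, and Irf1 had 0.916 with Ifitm1 and 0.868 with Ifitm3. Rigi and Ifitm2 had -0.765. These values describe 4 groups with 2 libraries each and share the libraries and their scaling. The genes most like each member were sought among 10093 genes with a mean of at least 5 CPM. Genes without a symbol, or with only a model number, clone or ID as symbol, were then passed over. Those most like Rigi over the 8 libraries were Ngfr (0.994), Wdr83 (0.993) and Ccng1 (0.993). Those most like Irf9 were Golm1 (0.992), Xpnpep3 (0.985) and Slc19a2 (0.983), and those most like Ifitm3 were Hmces (0.998), Smtnl1 (0.995) and Fam98b (0.995). Ifitm1 was nearest to Chchd6 (0.999), Irf1 to Ddr1 (0.984), Ifitm2 to Dap3 (0.969) and Stat2 to Mlst8 (0.942).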

How the data were processed

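Groups follow the group and treatment labels of the RNA sequencing libraries. The authors deposited raw counts per gene and FPKM. Dividing counts by gene length and library total gave all 456080 FPKM values within 1e-05. Per the submitters' processing notes, the build was GRCm39 and the tools were featureCounts 2.0.1, HISAT2 2.1.0, DESeq2 1.40.2 and fastp 0.23.2. The sources used here do not give strand, multi-mapping or annotation release. Here, edgeR 4.0.16 in R 4.3.3 fitted the counts of all 8 libraries with TMM scaling, filterByExpr and group means, and its quasi-likelihood F test was adjusted over 17976 genes. CPM are counts scaled with TMM factors. Standard errors are the log2 fold change over the square root of F. Alternatives used DESeq2 1.42.0, limma 3.58.1 on log2(FPKM + 1) or log2(FPKM + 0.1), other scalings and filters, a replicate block and left-out libraries. The members and lists were chosen with earlier results of these data known. Named pathway genes are, per list and comparison, up to 4 called genes with the lowest adjusted p, and all tested genes of lists with at most 5, unless stated. Not all are printed. Sequences and gene order come from RefSeq (GRCm38.p6) and GENCODE vM21, not the build of the counts, so the coordinates belong to those tables. Same-numbered replicates did not deviate together (correlations -0.064 to 0.024 over 13463 genes). Replicates differed by more than counting noise in every group (chi-square per degree of freedom 3.58 to 8.39).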

Additional observations from a re-analysis of the deposited data

Results flagged for a closer look

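The response to GANC differed between HSVTK and Control cells for 3 of 7 tested members and 36 of 126 tested pathway genes, by the interaction term of the edgeR fit with adjusted p below 0.05 (28.6% of the pathway genes, against 25.6% of all tested genes). All 3 members were positive, and of the 36 pathway genes 16 were positive and 20 negative. Values are given for the members and for the 23 pathway genes with the lowest adjusted p, up to 4 per list, as the log2 response in HSVTK cells minus that in Control cells. Among the members they were 1.585 for Irf9, 1.195 for Rigi and 0.7415 for Ifitm3. Irf9 and Rigi were higher with GANC in HSVTK cells and lower with GANC in Control cells, while the Control call of each was lost in some settings.

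Among the other Ifitm, sensor and adaptor genes the positive values were 1.138 for Ifitm7, 0.5025 for Mavs and 0.3884 for Dhx9, and the negative ones were -2.597 for Zbp1 and -0.7571 for Zcchc3. Among DNA sensors and nucleases they were 0.7063 for Dnase2a and -0.2913 for Aim2. Among kinases and induction factors they were 0.9746 for Irf3, 0.742 for Ikbkb, -0.732 for Irf2bp2 and -3.464 for Irf8. Among receptors and the JAK-STAT chain they were 0.4109 for Ifnar1, -0.2832 for Ep300, -0.4144 for Jak1 and -0.9114 for Ifngr1. Among inhibitors they were 0.304 for Pias2, -0.2686 for Trim27, -0.337 for Socs3 and -0.6226 for Ptpn6. Among effectors they were 1.739 for Xaf1, 0.5233 for Pml, -0.7248 for Bst2 and -2.473 for Slfn9. Of other genes named above, B4galnt4 stood at 0.64, Pidd1 at 0.73, Pnpla2 at -0.58 and Ifi30 at -0.42 by the same test. Zbp1 and Irf8 rest on at most 94 counts in a library. The value of Zbp1 was the less certain, with a standard error of 0.81 against 0.51 for Irf8.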

How the results depend on the processing

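Of 588 values of single members under other settings, 542 kept their direction and their side of the threshold, 31 lost the call, 5 gained it and 10 changed sign. The calls of Rigi, Irf9 and Ifitm3 for GANC in HSVTK cells, for the difference of responses and for HSVTK against Control cells under DMSO held under every setting run. All of these comparisons share the HSVTK DMSO libraries, so the calls are not separate from each other. The 10 sign changes concern Ifitm2 and Stat2 values that were not called: Ifitm2 in Control cells (-0.000479 with a mean CPM of at least 1, and -0.1197 to 0.1344 with 1 library left out), Ifitm2 in HSVTK against Control cells under GANC (-0.09076 to 0.1621 with 1 library left out), and Stat2 in the difference of responses (-0.00537 without a filter, -0.1025 to 0.09798 with 1 library left out) and under GANC (-0.00581 to 0.1946 with 1 library left out).

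The Control comparison was the least stable. Its 2 member calls became 1 with DESeq2 and without a filter, 0 with limma at both pseudocounts and 0 with only the 4 libraries compared, and ranged from 0 to 2 with 1 library left out. Its 1453 called genes became 190 in limma's fit to log2(FPKM + 1), 251 when 0.1 was added instead and 942 with only the libraries compared, and ranged from 433 (without Control DMSO replicate 2) to 2010 (without Control GANC replicate 1), with 592 without Control DMSO replicate 1 and 728 without Control GANC replicate 2. Its 5 higher and 3 lower pathway genes became 0 and 0 with limma at both pseudocounts, 3 and 1 with only the libraries compared and 1 lower without a filter, and ranged from 1 to 10 higher and from 0 to 7 lower with 1 library left out.

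In HSVTK GANC against HSVTK DMSO, 5119 called genes ranged from 3313 to 5627 with 1 library left out (3380 without HSVTK DMSO replicate 1, 3313 without replicate 2), and the 20 lower pathway genes from 11 to 21, with 12 under DESeq2 and 12 and 13 under limma. In the difference of responses, called members ranged from 3 to 5 with 1 library left out (5 without Control GANC replicate 1), higher pathway genes from 9 to 15 and lower ones from 12 to 19, with 12 under limma at both pseudocounts. In HSVTK against Control cells, lower pathway genes under DMSO ranged from 13 to 32 with 1 library left out and were 15 under limma at both pseudocounts, and under GANC they were 13 and 14 under limma. The 4685 genes called under GANC ranged from 2999 (without HSVTK GANC replicate 2) to 4497. The cause of these shifts was not tested, and the fits that left libraries out also had fewer libraries. With library size scaling, 2579 genes were higher and 2190 lower under GANC, against 2004 and 2681 with TMM scaling. The larger side changed also for HSVTK GANC against HSVTK DMSO, with 2758 higher and 2325 lower, against 2391 and 2728. In HSVTK against Control cells under DMSO it changed too, with 3233 higher and 2818 lower, against 2957 and 3103. In Control cells and in the difference of responses the larger side stayed the same.

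With a replicate block, Control cells had 3 higher pathway genes in place of 5 and the called genes were 1339 in place of 1453. The block changed no member call, and the replicate numbers are not known to pair samples. With 2 libraries per group, differences within the 95% intervals given for Stat2 and for Irf1 with GANC were not excluded, and counts of single Ifitm copies are limited by shared reads.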
